A study of Mus musculus with 768 samples.

Results

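The adipocyte fatty acid binding protein gene Fabp4 was followed together with 9 further genes of lipid uptake and adipogenesis (Fabp5, Cd36, Lpl, Plin2, Pparg, Cebpa, Cebpb, Cebpd and Apoe) in single fibroblasts of mouse mammary tumors. The 10 genes were taken by symbol from the 24490 endogenous genes measured, and all 10 were present. Cells came from 14-week-old FVB/N-Tg(MMTVPyVT)634Mul/J mice, in which the mouse mammary tumor virus promoter drives the polyoma middle T oncogene, and were sorted as live EpCAM-, CD45-, CD31- and NG2- cells by negative selection, which leaves any cell that lacks these 4 surface proteins. Each of 768 wells held 1 sorted cell, processed by Smart-seq2, a full-length method without molecular identifiers. There was 1 plate for each of 2 tumors, so that tumor and plate cannot be told apart. No treated or tumor-free group was present, and comparisons were made between classes of cells, over n = 2 tumors.

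The gene products act at successive steps of one pathway. Lipoprotein lipase, from Lpl, releases fatty acids from circulating lipoproteins, CD36 takes fatty acids up at the cell surface, and FABP4 and FABP5 carry them in the cytosol. Perilipin 2, from Plin2, coats lipid droplets, and apolipoprotein E, from Apoe, carries cholesterol and other lipids out of cells. In adipogenesis C/EBPβ and C/EBPδ act early and are followed by PPARγ and C/EBPα. The later pair together switches on genes of the mature fat cell, Fabp4, Cd36 and Lpl among them. Fabp4 is best known from adipocytes, but it is also expressed in capillary endothelium and in macrophages, so its reads alone do not name a cell type.

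Of the wells, 727 had at least 10000 reads outside the ERCC spike-ins and were used (373 of tumor 1 and 354 of tumor 2, from 10281 to 1190516 reads, median 207477). The best of the 41 wells left out held 9665 reads. The wells used were clustered without the 10 genes, and clusters were named from marker lists. There were 406 vascular-like wells (markers Rgs5, Higd1b, Kcnj8, Notch3, Des), 175 matrix-like wells (Dcn, Lum, Pdgfra), 57 cycling-like wells (Top2a, Mki67), 21 developmental-like wells (Scrg1, Sox9, Sox10), and 68 wells in clusters that stayed unnamed. All 10 vascular markers were read in at least 50% of vascular-like wells, from Nid2 in 71.7% to Rgs5 in 100.0%. Median depth was 185984.5 reads in vascular-like, 238373 in matrix-like, 245025 in cycling-like and 265008 in developmental-like wells. ERCC reads took a median of 14.8%, 6.39%, 8.45% and 5.17% of reads in these classes, so a vascular-like well held less endogenous RNA relative to its spike-in.

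In the mm10 genome (RefSeq, GRCm38.p6), Fabp5 at chr3:10012585-10016610 and Fabp4 at chr3:10204342-10208616 lie 187731 bases apart. Of the Fabp genes between and beside them, Fabp9 had a read in 3 wells, and Pmp2 and Fabp12 in none. The other genes lie at chr5:17781690-17888959 (Cd36), chr8:68880555-68906932 (Lpl), chr4:86626910-86670217 (Plin2), chr6:115360879-115490404 (Pparg), chr7:35119293-35121928 (Cebpa), chr2:167688915-167690432 (Cebpb), chr16:15887286-15889545 (Cebpd) and chr7:19696244-19701310 (Apoe). In the GENCODE transcripts, Fabp4 shared none of its 4544 different 43-base stretches, the length of a read, with another gene, and neither did Cd36, Pparg, Cebpa, Cebpb, Cebpd or Apoe. Fabp5 shared 6.99% of its stretches (212 of the 252 with Gm6166), Plin2 3.17% (with Gm12551) and Lpl 1.45%, so some reads of these 3 genes could belong to another locus.

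RefSeq promoters, 250 bases before to 50 after the start, were available for 6 of the 10 genes, with 10 entries in all. Fabp4, Fabp5, Lpl and Cebpd had no entry, so their promoters were not searched. The letters AGGTCA, the core hexamer bound by PPARγ and other nuclear receptors, stood on either strand in 4 of these 10 entries and in 16.3% of all 32851 promoters. Those 4 entries were the single ones of Cd36 and Plin2 and 2 of the 3 of Pparg. The direct repeat of the hexamer with 1 base between (0.0396% of all promoters) and the C/EBP palindrome TTGCGCAA (0.183%) stood in none of the 10. The promoters of Cd36 and Plin2, textbook targets of PPARγ that behaved differently beside Fabp4, are shown 5′ to 3′ on the strand of the gene, with the hexamer in capitals, read on the opposite strand as TGACCT. They lie on the minus strand of GRCm38.p6, at chr5:17835847-17836146 and chr4:86670010-86670309, and the hexamer begins at base 23 and base 33 of the window. A match of letters is a description and shows no binding.
Cd36: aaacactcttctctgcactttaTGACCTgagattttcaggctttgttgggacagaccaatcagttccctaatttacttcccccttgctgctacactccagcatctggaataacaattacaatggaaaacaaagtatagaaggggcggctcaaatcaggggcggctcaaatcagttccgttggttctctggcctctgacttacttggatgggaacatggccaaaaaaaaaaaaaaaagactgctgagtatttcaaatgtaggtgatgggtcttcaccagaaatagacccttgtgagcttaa
Plin2: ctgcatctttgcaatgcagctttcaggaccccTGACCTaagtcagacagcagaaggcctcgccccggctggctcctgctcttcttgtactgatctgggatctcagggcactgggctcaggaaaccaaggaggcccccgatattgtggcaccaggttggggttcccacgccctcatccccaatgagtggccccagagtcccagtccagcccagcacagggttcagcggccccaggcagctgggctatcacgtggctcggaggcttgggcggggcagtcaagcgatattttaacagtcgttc

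Fabp4 was the most highly expressed of the 10 genes in vascular-like wells and was close to absent from matrix-like and developmental-like wells. A vascular-like well held on average 553 ± 16.1 RPKM of Fabp4 (mean ± SD of 2 tumor means, with RPKM the reads scaled to gene length and library depth), against 67.6 ± 20.5 RPKM of Lpl, the next in order. In tumor 1, 176 of 213 vascular-like wells held a Fabp4 read (82.6%, exact 95% binomial interval 76.9 to 87.5%), and in tumor 2, 141 of 193 (73.1%, 66.2 to 79.2%). Here and below such intervals cover counting error over wells only. Wells of the same tumor are not replicates, so the intervals leave out the spread between tumors. Reads without molecular identifiers are also not independent molecules. The median well of tumor 1 had 304 RPKM and that of tumor 2 had 206 RPKM, with the highest at 6238 and 4211 RPKM. Levels spread widely within the class: 70.9% and 59.6% of wells were at 100 RPKM or more, and 17.8% and 18.7% at 1000 RPKM or more.

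**Figure D1:**
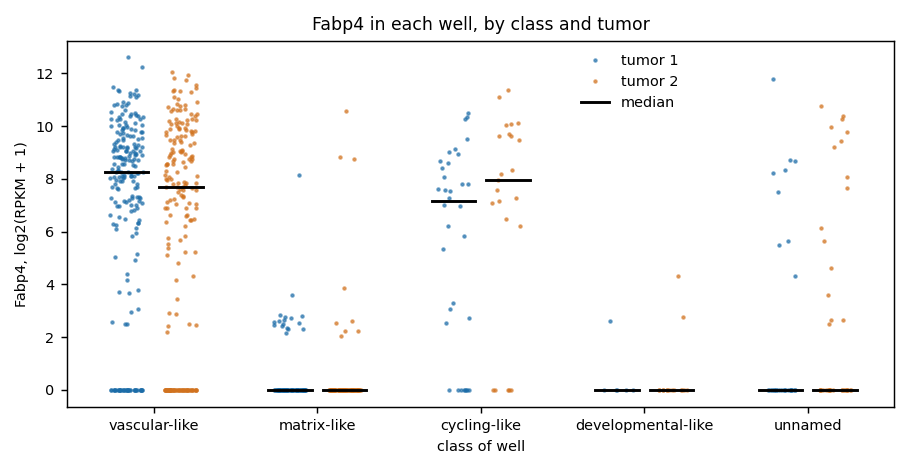
Fabp4 as log2(RPKM + 1) in each of the 727 wells (points), by class and tumor, with the median of each group as a bar. Vascular-like and cycling-like wells form a broad upper band and a separate set at 0, with 317 of 406 and 44 of 57 wells above 0, against 26 of 175 matrix-like and 3 of 21 developmental-like wells.

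In matrix-like wells a Fabp4 read was found in 17 of 89 wells of tumor 1 and 9 of 86 of tumor 2. The median positive well there held 1 read, against 55 reads in a positive vascular-like well. When each well was thinned to 50000 reads, the share with Fabp4 fell from 14.9% to 3.61% in matrix-like and from 14.3% to 0.0% in developmental-like wells, but only from 78.1% to 77.0% in vascular-like wells. The origin of these single reads was not tested. At 100 RPKM or more, 1 matrix-like well of tumor 1 and 3 of tumor 2 remained, and a single well of tumor 2 held 86 of its 134 matrix-like Fabp4 reads. Cycling-like wells resembled vascular-like wells in Fabp4, with 76.5% and 78.3% positive and 416 ± 202 RPKM on average.

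A summed level does not tell fewer positive wells from fewer reads in each, so it is read beside the shares. On summed counts per class and tumor (edgeR quasi-likelihood test, adjusted over 11735 genes), Fabp4 was lower in matrix-like than in vascular-like cells, with a log2 fold change of -6.36 ± 0.86 (SE, adjusted p = 0.00843, lower in 2 of 2 tumors). It was lower in developmental-like cells as well, at -9.01 ± 1.08 (adjusted p = 0.00309, 2 of 2 tumors). In cycling-like relative to vascular-like cells the log2 difference was -0.37 ± 0.68 (adjusted p = 0.938), had opposite signs in the 2 tumors, -1.33 and 0.28, and was 0.74 with ERCC reads as library size. All 3 comparisons use the same vascular-like libraries. The matrix-like call depended on how wells were assigned: with classes from the smaller set of variable genes chosen first, the difference was -2.82 (adjusted p = 0.408). With wells given to the class of highest marker score, the developmental-like difference was -0.82 (adjusted p = 0.594). The classes come from the same wells that are compared, so a gene that varies with the clustered genes differs between them in part by construction.

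The endothelial marker list was high in the same classes as Fabp4, and its part in the difference was not tested. Its 16 genes summed to 1610 and 1710 CPM (reads scaled to library depth) in vascular-like, 272 and 234 CPM in matrix-like, 1510 and 1410 CPM in cycling-like and 7.63 and 90.9 CPM in developmental-like cells, in tumor 1 and tumor 2. These reads came from Esam, Eng and Flt1, read in 91.9%, 88.9% and 73.4% of vascular-like wells, and from Emcn in 45.6%, which mural cells can also express. Plvap was read in 32.3% and Vwf, the von Willebrand factor gene, in 11.3% of them. Of the 4 genes taken as defining, Pecam1 and Cdh5 had 0 reads in all 406 vascular-like wells, which allows a share of up to 0.739% of wells each, and Tie1 and Kdr were read in 1 well each. Pecam1 encodes CD31, on which cells had been sorted out. Macrophage markers were near 0 too, with Csf1r, Adgre1 and Tyrobp unread and each of the other 9 in at most 2.46% of wells. An Epcam read was found in 20 of the 317 Fabp4-positive and 3 of the 89 Fabp4-negative vascular-like wells, and without wells holding Epcam, Pecam1 or Ptprc both calls for Fabp4 stood (adjusted p = 0.0106 and 0.00365 by edgeR).

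**Figure D2:**
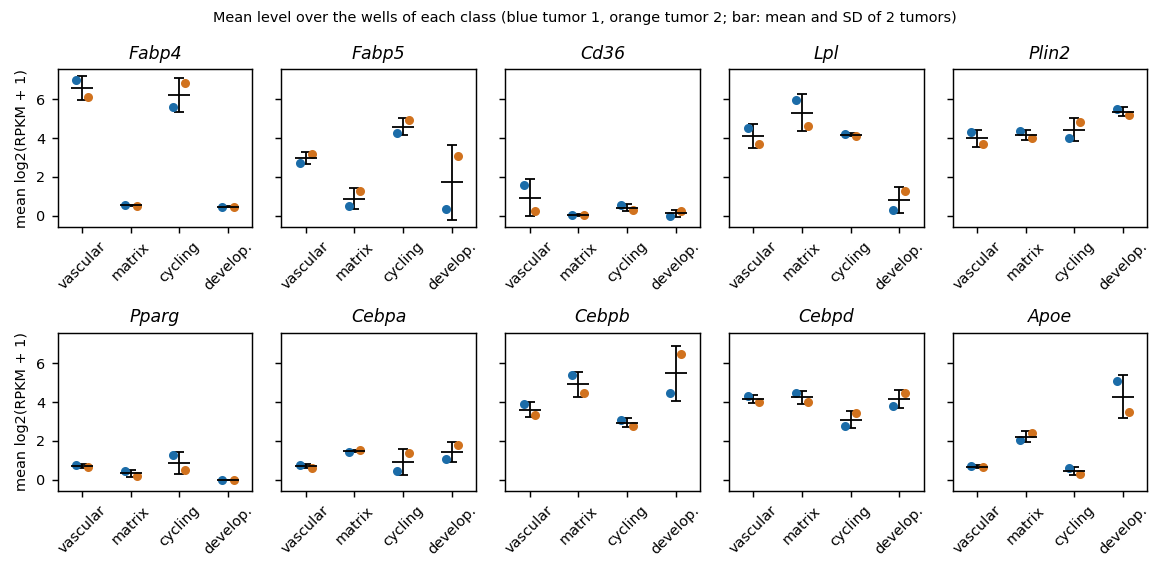
Mean log2(RPKM + 1) of each gene over the wells of a class, by tumor (points), with the mean and SD of the 2 tumors (bars). Fabp4 stands at 6.58 and 6.22 in vascular-like and cycling-like cells against 0.53 and 0.45 in the other classes, and Apoe runs the other way, highest in developmental-like cells at 4.29.

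Its neighbour Fabp5 was less restricted. The mean level of Fabp5 on the log2(RPKM + 1) scale was highest in cycling-like cells (4.60 ± 0.46), followed by vascular-like (2.96 ± 0.32), developmental-like (1.74 ± 1.94) and matrix-like cells (0.89 ± 0.54, SD, n = 2 tumors). Vascular-like wells with a Fabp5 read made up 57.7% and 61.1% in the 2 tumors, and matrix-like wells 15.7% and 24.4%. In the developmental-like class tumor 1 had 1 Fabp5 read in all, and a single well of tumor 2 held 86.2% of its 210 reads. No comparison of Fabp5 between classes passed the threshold, with log2 fold changes of -1.61 ± 1.45 for matrix-like (adjusted p = 0.767), 0.60 ± 1.42 for cycling-like (adjusted p = 0.957) and -0.57 ± 1.43 for developmental-like cells (adjusted p = 0.851).

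Cd36 was carried by few wells and mostly by 1 tumor. In vascular-like wells it was read in 63 of 213 wells of tumor 1 (29.6%, 23.5 to 36.2%) and 11 of 193 of tumor 2 (5.7%, 2.88 to 9.97%). The summed level was 198 CPM in tumor 1 and 30.4 CPM in tumor 2, where a single well held 760 of the 1117 reads. Without the top well of each library these became 178 and 9.78 CPM. Cycling-like cells, in which Fabp4 was high, had 55.1 and 2.43 CPM of Cd36, with a log2 difference from vascular-like cells of -1.99 ± 1.38 (adjusted p = 0.719). Matrix-like cells had 6 and 2 Cd36 reads (0.257 and 0.105 CPM), each from a different well. The log2 fold change of matrix-like against vascular-like cells was -8.96 ± 1.95 (adjusted p = 0.041, lower in 2 of 2 tumors), and the call was lost in 4 of the alternatives, with adjusted p up to 0.169. Developmental-like cells had 2 reads in all, from 1 well of tumor 2 (adjusted p = 0.0435, lost in 3 alternatives). That is 1 of 15 wells of tumor 2 (6.67%, 0.169 to 31.9%), and in tumor 1 it was 0 of 6 (0.0 to 45.9%). Both intervals include the vascular-like share of the same tumor. By reads, the level in tumor 2 was 54.9-fold below vascular-like cells, with a 95% counting interval of 15.2-fold to 453-fold. In tumor 1, with 0 reads, a floor of 3 counts in the library lay 121-fold below vascular-like cells. These fold values count reads as independent and give no bound over wells.

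Lpl, the lipase, was read in 80.3% of vascular-like, 85.1% of matrix-like and 84.2% of cycling-like wells, but in 38.1% of developmental-like wells. In summed counts matrix-like cells held 1140 and 470 CPM and vascular-like cells 391 and 261 CPM. The log2 fold change was 1.57 ± 1.27, positive in both tumors, and did not pass (adjusted p = 0.71). In developmental-like cells the level was 1.64 CPM in tumor 1 and 148 CPM in tumor 2, where 94.9% came from a single well, and the difference was -2.28 ± 1.31 (adjusted p = 0.324). Plin2, the droplet coat, was read in 70.0% to 90.5% of the wells of every class, and its mean RPKM ranged only from 49.8 to 67.5. Its log2 differences from vascular-like cells were -0.02 ± 0.30, -0.49 ± 0.30 and -0.53 ± 0.30 in matrix-like, cycling-like and developmental-like cells (adjusted p = 0.998, 0.669 and 0.32).

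Of the transcription factors, the late pair Pparg and Cebpa was rare and the early pair Cebpb and Cebpd common. Pparg was read in 30 of 213 and 25 of 193 vascular-like wells and Cebpa in 36 and 29 wells. Cebpb was read in 75.6% and 71.5% and Cebpd in 78.4% and 72.5%. Mean levels in vascular-like cells were 9.83 ± 3.3 RPKM for Pparg, 4.44 ± 0.539 for Cebpa, 37.6 ± 9.19 for Cebpb and 55.9 ± 0.633 for Cebpd. Matrix-like wells had Pparg in 7.43% and Cebpa in 37.7%, with log2 fold changes of -1.51 ± 0.85 and 1.06 ± 0.81 against vascular-like cells (adjusted p = 0.498 and 0.689). Pparg had 0 reads in the 21 developmental-like wells (adjusted p = 0.0153 by edgeR, and 0.5 with wells given to the highest marker score). The exact interval for that share, 0.0 to 16.1%, includes the 13.5% of vascular-like wells with a read. The floor of 3 counts per library lay 16.2-fold below the vascular-like level in tumor 1 and 15.9-fold below it in tumor 2. That floor counts reads as independent, while a positive vascular-like well held a median of 28 Pparg reads, so it gives no bound over wells. Cebpb was read in all 21 developmental-like wells, and its log2 difference was 0.73 ± 0.48 (adjusted p = 0.387), which passed only with ERCC reads as library size (2.47, adjusted p = 0.0298). In cycling-like cells Cebpd differed by -1.50 ± 0.28, the same way in both tumors, and did not pass by edgeR (adjusted p = 0.182) but did by DESeq2 (adjusted p = 0.00024). No other class difference of Cebpa, Cebpb or Cebpd passed by edgeR (adjusted p from 0.366 to 0.928).

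Apoe ran against Fabp4. It was read in 13.6% and 11.9% of vascular-like, 33.7% and 37.2% of matrix-like, and 66.7% and 53.3% of developmental-like wells. Summed levels were 34.7 and 13.4 CPM in vascular-like, 280 and 105 CPM in matrix-like and 876 and 320 CPM in developmental-like cells. Apoe was higher in matrix-like cells (log2 fold change 3.26 ± 0.75, adjusted p = 0.0492) and in developmental-like cells (4.50 ± 0.79, adjusted p = 0.0136), in 2 of 2 tumors each. The first lies at the threshold and was lost in 6 of the alternatives, among them the smaller set of variable genes (0.40, adjusted p = 0.926), and the second with the highest marker score (5.74, adjusted p = 0.0716). Single wells weighed heavily: the top matrix-like well of tumor 1 gave 74.6% of its reads, and without the top well of each library the levels were 71.6 and 81.3 CPM in matrix-like against 16.3 and 10.7 CPM in vascular-like cells. The 12 epithelial markers moved with Apoe into the developmental-like class, at 3920 and 7610 CPM against 50.7 and 243 CPM in vascular-like cells, and at 347 and 267 CPM in matrix-like cells. The 12 markers of macrophages, which can express Apoe, summed to 2.44 and 9.92 CPM in vascular-like, 17.2 and 13.9 CPM in matrix-like and 20.2 and 28.3 CPM in developmental-like cells. The part of both lists in the level of Apoe was not tested.

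Counted together, 3 of the 10 genes passed between matrix-like and vascular-like cells (Apoe higher, Fabp4 and Cd36 lower), where 7.16% of all 11735 genes did (4.35% higher and 2.81% lower). The median log2 difference of the 10 was 0.16, with -0.01 for all genes. Between developmental-like and vascular-like cells 4 passed (Apoe higher, Fabp4, Cd36 and Pparg lower) beside 12.9% of all genes (4.7% higher and 8.15% lower), with medians of -0.55 and -0.11. Between cycling-like and vascular-like cells none of the 10 passed by edgeR, where 0.0% of all genes did, 1244 genes (10.6%) had an unadjusted p under 0.05, the block gave 1 gene (0.00852%), and DESeq2 called 556 genes (4.74%), Cebpd and Apoe among them, both lower.

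**Figure D3:**
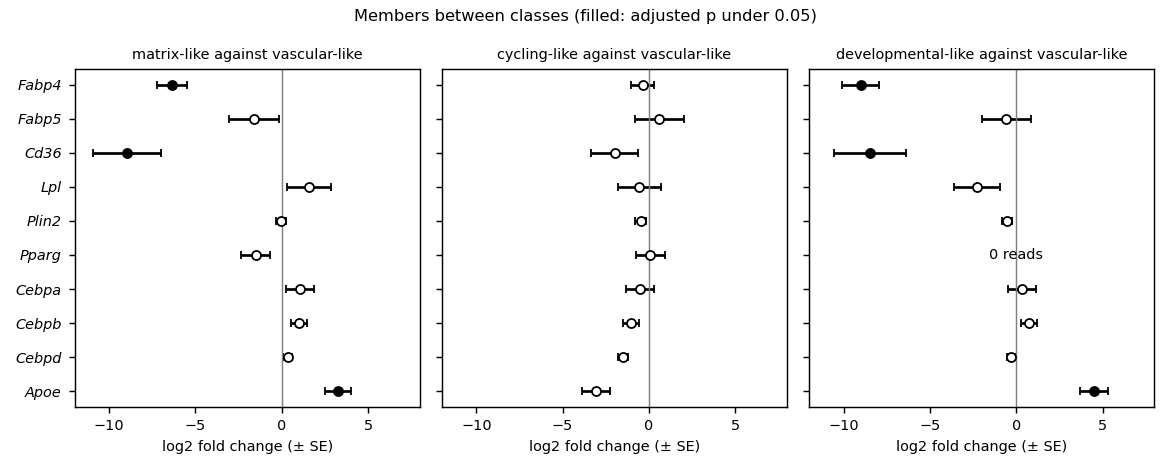
Log2 fold change with SE of each gene in 3 classes against vascular-like cells, from edgeR on counts summed per class and tumor (n = 2 tumors), filled where the adjusted p is under 0.05. Fabp4 and Cd36 are filled on the left and Apoe on the right in the matrix-like and developmental-like panels, no gene is filled in the cycling-like panel, and Pparg had 0 reads in developmental-like cells.

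The genes that define a fat cell were not read where Fabp4 was. Of the 12 adipocyte genes listed, Adipoq (adiponectin), Cidec, Lep (leptin), Retn, Cfd and Aqp7 had 0 reads in all 406 vascular-like wells. Plin1, Car3, Pck1 and Adrb3 were each read in 1 well and Lipe in 2.46%. The exception was Slc2a4, the insulin-responsive glucose transporter GLUT4, which muscle also uses, read in 41.6% of vascular-like wells and called lower in matrix-like cells (log2 fold change -5.41 ± 1.08, adjusted p = 0.0319). It was the only adipocyte gene of the 12 that passed the filter on low values. Across the 317 Fabp4-positive vascular-like wells, Adipoq, Plin1, Cidec and Lep together gave 2 reads, in 1 well.

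**Figure D4:**
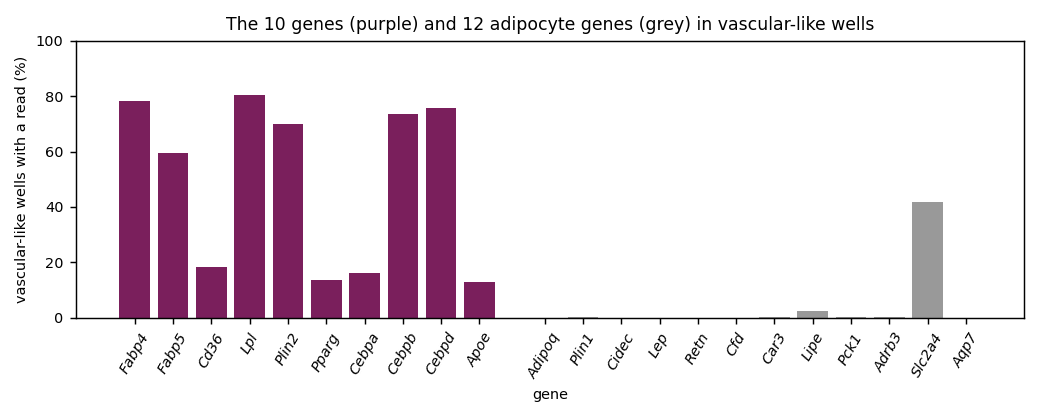
Percent of the 406 vascular-like wells with at least 1 read of each of the 10 genes (purple) and of 12 adipocyte genes (grey). Fabp4 stands at 78.1% and Lpl at 80.3%, while Slc2a4 at 41.6% is the one adipocyte gene above 2.46%.

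Other lipid genes were then counted by list. Between matrix-like and vascular-like cells, where 4.35% of all genes were higher and 2.81% lower, none of 14 tested lipid storage genes and none of 11 fatty acid oxidation genes passed. Of 17 lipid uptake genes Lrp1 (log2 fold change 2.33 ± 0.30, adjusted p = 0.00728) and Angptl4, an inhibitor of lipoprotein lipase (3.99 ± 0.64, adjusted p = 0.0152), were higher. Of 16 cholesterol and apolipoprotein genes 4 were higher, namely Apod, Npc2, Soat1 and Insig1, with Apod, which encodes apolipoprotein D, the furthest at 6.42 ± 0.53 (adjusted p = 0.00154). Of 18 adipogenic regulators 1 was higher and 3 were lower. Klf4 was higher, while Dlk1, which marks preadipocytes and restrains adipogenesis (-8.52 ± 0.72, adjusted p = 0.00162), and the early B-cell factors Ebf2 (-2.66 ± 0.46, adjusted p = 0.0206) and Ebf1 (-1.63 ± 0.33, adjusted p = 0.0333) were lower. Ebf1 and Ebf2 were read in 88.2% and 67.0% of vascular-like wells. The medians of these lists were 0.38 for lipid storage, -0.52 for oxidation, 0.54 for uptake, 1.14 for cholesterol and 0.22 for regulators.

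In developmental-like cells, where 4.7% of all genes were higher and 8.15% lower, 5 of 14 lipid storage genes were higher, G0s2, an inhibitor of fat breakdown, the furthest (3.04 ± 0.35, adjusted p = 0.0025), and none was lower. Dbi and Acsl4, which bind and activate fatty acids, were the 2 of 17 uptake genes that were higher. Of 18 adipogenic regulators 4 were higher and 4 lower, of 16 cholesterol genes 3 higher and 2 lower, and of 11 oxidation genes none passed. In cycling-like cells 0 genes of these 5 lists passed by edgeR, as for all genes.

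The question of whether Fabp4 in vascular-like cells goes with the adipogenic factors was then taken within the class. A Pparg or Cebpa read was found in 82 of 317 Fabp4-positive wells (25.9%, 21.1 to 31.1%) and 22 of 89 Fabp4-negative wells (24.7%, 16.2 to 35.0%). The 2 tumors ran opposite ways, with 25.6% against 37.8% in tumor 1 and 26.2% against 15.4% in tumor 2. Thus 235 of the 317 Fabp4-positive wells (74.1%) held no read of either factor, and 15 held both. Median depth was 192260 reads in Fabp4-positive and 167927 in Fabp4-negative wells. With every well thinned to the same 50000 reads, 22.8% and 21.3% held a factor read.

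Taken singly, Pparg was read in 14.8% of Fabp4-positive wells of tumor 1 and 14.9% of tumor 2, against 10.8% and 7.69% of Fabp4-negative wells, with overlapping intervals in each tumor. Cebpa was read in 26 of 176 and 24 of 141 Fabp4-positive wells against 10 of 37 and 5 of 52 Fabp4-negative wells. The genes Pparg, Cebpa, Cd36, Lpl and Plin2 were also counted together. Of these 5 genes, 18 Fabp4-positive wells held a read of none, 76 of 1 and 136 of 2. A further 62 held 3, 20 held 4 and 5 held all 5. Among Fabp4-negative wells the numbers were 5, 26, 38, 18, 1 and 1. Over both tumors each side most often carried 2 of the 5. Lpl and Plin2 alone were read in 80.3% and 70.0% of vascular-like wells, so this count says little about the other 3.

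**Figure D5:**
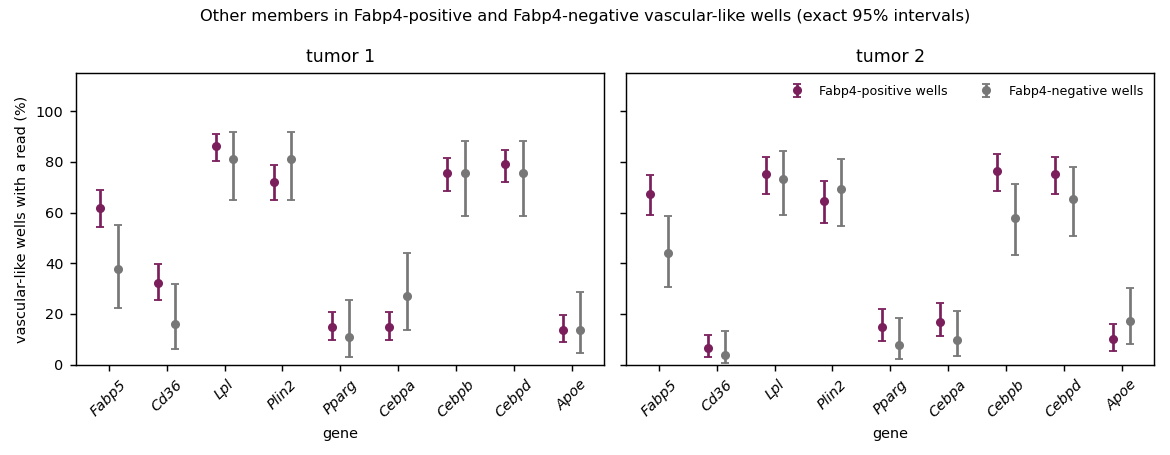
Percent of Fabp4-positive (purple) and Fabp4-negative (grey) vascular-like wells with a read of each other gene, by tumor, with exact 95% intervals over wells. Fabp5 is separated in tumor 2 and nearly so in tumor 1. The intervals of all the other genes, Cd36 among them, overlap in both tumors. All shares shown are before thinning.

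Cd36 differed between the sides in amount, while its shares of wells had overlapping intervals. It was read in 32.4% of Fabp4-positive against 16.2% of Fabp4-negative wells in tumor 1, and in 6.38% against 3.85% in tumor 2. Fabp4-positive wells held 8259 Cd36 reads in tumor 1 and 1110 in tumor 2 (232 and 40.1 CPM), and Fabp4-negative wells 7 in each tumor (1.12 and 0.778 CPM). More than 3 Cd36 reads were seen in 43 of 176 and 6 of 141 Fabp4-positive wells and in 0 of 37 and 1 of 52 Fabp4-negative wells. In tumor 2 the top well gave 68.5% of the Fabp4-positive reads, and without it the level was 12.7 CPM, still above the other side. In summed counts the log2 difference was 7.17 ± 1.08, in the same direction in 2 of 2 tumors. It did not pass edgeR's adjustment over 11080 genes (p = 0.000575, adjusted p = 0.579), passed without the filter on low genes (adjusted p = 0.00372), and passed by DESeq2 (adjusted p = 1.9e-15). In the largest vascular-like cluster alone, with 210 wells, the difference was 7.15.

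Fabp5 was read in 61.9% and 67.4% of Fabp4-positive against 37.8% and 44.2% of Fabp4-negative wells, and in 47.0% and 58.5% against 31.6% and 29.4% after thinning. Its log2 difference was 1.09 ± 0.53 (adjusted p = 0.859, higher in 2 of 2 tumors). The summed level of Lpl went the other way, with 353 and 206 CPM in Fabp4-positive and 608 and 430 CPM in Fabp4-negative cells. This is -0.91 ± 0.33 on the log2 scale (adjusted p = 0.779). Without the top well of each library the levels were 332 and 195 against 519 and 327 CPM. The share of wells with Lpl did not follow before thinning, at 86.4% and 75.2% against 81.1% and 73.1%, with overlapping intervals. After thinning the tumors ran opposite ways, at 72.6% against 81.6% in tumor 1 and 67.7% against 60.8% in tumor 2. These intervals overlapped as well. The 10 matrix-like markers summed in the median well to 31.0 and 35.5 CPM on the Fabp4-positive and 124 and 88.7 CPM on the Fabp4-negative side, and pooled to 235 and 216 against 222 and 217 CPM. The 10 vascular-like markers pooled to 25500 and 24500 against 18200 and 23200 CPM. The part of either list in the split was not tested. Plin2 (-0.17 ± 0.22), Cebpb (0.29 ± 0.38) and Cebpd (-0.02 ± 0.21) differed by less than their errors. So did Apoe (0.04 ± 0.68), Cebpa (0.30 ± 0.68) and Pparg (0.47 ± 1.31). By share of wells after thinning, Cebpb was separated in tumor 2, at 65.4% (56.5 to 73.5%) against 41.2% (27.6 to 55.8%). It was alike in tumor 1, at 65.5% against 65.8%. Genes below the threshold are not shown to be equal.

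No gene passed between Fabp4-positive and Fabp4-negative cells by edgeR (0.0% of 11080, Fabp4 itself left out), 674 (6.08%) had an unadjusted p under 0.05, the tumor block gave 0 and DESeq2 110 (0.993%). Counts of the lists were 0 throughout. The 5 genes of smallest p among those higher in Fabp4-positive cells were Prelp, Chrdl1, Filip1l, Ackr3 and Zscan22, and among those lower F2r, Lgi1, Mmp2, Enpp1 and Itih5. F2r, the thrombin receptor, differed by -1.95 ± 0.23 and Mmp2, a matrix protease, by -1.44 ± 0.20 (adjusted p = 0.483 for both). Among endothelial genes Plvap was read in 26.8% of Fabp4-positive and 51.7% of Fabp4-negative wells and Emcn in 48.9% and 33.7%, with adjusted p of 0.669 for Plvap. The 14 immediate early and stress genes, which rise during dissociation of tissue, summed in the median well to 9030 and 7420 CPM on the Fabp4-positive and 3930 and 6130 CPM on the Fabp4-negative side and pooled to 10800 and 8520 against 8100 and 8520 CPM, and their part in the split was not tested.

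Read the other way, by factor, Fabp4 was read in 82 of 104 vascular-like wells with a Pparg or Cebpa read (78.8%, 69.7 to 86.2%) and in 235 of 302 without (77.8%, 72.7 to 82.4%). The tumors ran opposite ways, with 76.3% against 85.1% in tumor 1 and 82.2% against 70.3% in tumor 2. Summed levels of Fabp4 were 680 and 533 CPM with a factor read against 339 and 341 CPM without, and 591 and 484 against 326 and 323 CPM without the top well of each library. The mean per well on the log2(RPKM + 1) scale was 6.97 with against 7.02 without in tumor 1 and 7.37 against 5.77 in tumor 2. The log2 difference was 0.89 ± 0.19, higher in 2 of 2 tumors, with p = 0.00325 and adjusted p = 0.956 by edgeR over 11079 genes and adjusted p = 0.00665 by DESeq2. Wells with a factor read were deeper, at a median of 218010.5 reads against 173199. Cd36 (0.78 ± 1.16), Lpl (0.33 ± 0.31), Fabp5 (0.34 ± 0.42), Plin2 (0.04 ± 0.21), Cebpb (0.06 ± 0.35), Cebpd (-0.16 ± 0.21) and Apoe (1.26 ± 1.00) did not pass. No gene passed by edgeR (0.0%), 513 (4.63%) had an unadjusted p under 0.05, DESeq2 called 52 (0.469%), and with tumor as a block edgeR called 5 (0.0451%), Fabp4 not among them (adjusted p = 0.216). By Pparg alone the mean of Fabp4 on the log2(RPKM + 1) scale was 7.73 with and 6.89 without a Pparg read in tumor 1 and 8.36 and 5.82 in tumor 2. By Cebpa alone it was 6.75 and 7.06 in tumor 1 and 7.03 and 5.99 in tumor 2, in opposite directions.

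Likeness to Fabp4 was taken across vascular-like wells. The 5 highest Spearman correlations, averaged over 213 wells of tumor 1 and 193 of tumor 2 and among 9151 genes read in at least 10% of these wells, were Myh11 (0.399), Tpm1 (0.392), Rgs5 (0.35), Cav1 (0.345) and Myl9 (0.334). Myh11, Tpm1 and Myl9 encode smooth muscle myosin, tropomyosin and myosin light chain, and Cav1 encodes the coat protein of caveolae. Among the other 9 genes, Fabp5 (0.326), Cd36 (0.239) and Pparg (0.175) were nearest to Fabp4, and Plin2 (-0.0103), Lpl (0.0195) and Cebpd (0.0105) were near 0. For Cd36 the nearest genes were Procr (0.312), Cxcl12 (0.295), Cav1 (0.276), Tnxb (0.274) and Sdpr (0.274, from 0.479 in tumor 1 and 0.0688 in tumor 2), and for Lpl they were Tinagl1 (0.351), Il6st (0.283), Pdlim1 (0.277), Rrad (0.272) and Cyp4b1 (0.255). These are correlations over wells that share a plate and differ in depth, and they are given as a description.

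Cebpb and Cebpd were nearest to immediate early genes instead. The median correlation with 14 such genes was 0.252 for Cebpb and 0.196 for Cebpd, with 0.0117 and 0.0154 over all 9150 genes, and the nearest gene was Nr4a1 for Cebpb (0.398) and Junb for Cebpd (0.312). For Pparg and Cebpa the same median was 0.0229 and 0.0324, with 0.0193 and 0.0179 over all genes. For Fabp4 it was 0.104, with 0.00521 over all genes. Pparg and Cebpa correlated at 0.163 with each other and at -0.0308 and -0.0262 with Cebpb.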

How the data were processed

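Single sorted fibroblasts of 2 MMTV-PyMT tumors were sequenced by Smart-seq2. The authors aligned single-end reads with STAR to mm10, counted reads per RefSeq gene and computed RPKM with rpkmforgenes. The deposited tables hold those raw read counts and RPKM values for 24490 genes and 92 ERCC spike-ins, without molecular identifiers. Each column carries the title of 1 sample. Whether STAR's multimapping reads were counted was not given in the sources used here.

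Wells with at least 10000 non-ERCC reads were kept, at a median of 219264 (tumor 1) and 198180 (tumor 2) reads. Classes came from Ward clustering of 15 principal components of log2(RPKM + 1) over 1000 variable genes without the 10 genes, cut at 11 clusters. The 557 variable genes chosen first gave no cycling-like class with up to 20 clusters, so 1000 was adopted after that result was seen and 557 is an alternative. A cluster was named where at least 3 markers were detected, at least 50% of its wells held 50% of the markers, and no other list led its top 10 genes. Doublets were gated out at the sort by the authors and no further caller was run.

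Counts were summed per tumor and class and tested with edgeR 4.0.16 (quasi-likelihood, TMM) on genes with mean RPKM of at least 1, with Benjamini-Hochberg adjustment over all genes and a threshold of 0.05. Fits used 8 libraries (2 tumors, 4 classes) or, for the splits, 4, without the genes that made the split. Residual spread is between 2 tumors, of 1 plate each. Libraries are paired by the tumor, and so the animal, they share. Their deviations from the class means correlated at 0.0226 to 0.104 between classes, 0.0904 for the Fabp4 split and 0.125 for the factor split. Intervals are exact 95% binomial, and thinning drew 50000 reads a well and left out shallower wells. Simulated counts held 11735 (classes) or 11081 (splits) genes, with 100 changed by 2 and 100 by 6 on the log2 scale. The changed genes were drawn only from those above a minimum mean count, so rarer genes are not covered. The matrix-like comparison recovered 18 and 74, the cycling-like 13 and 85, and the developmental-like 12 and 83. The Fabp4 split recovered 48 and 89, and the factor split 51 and 91. Unchanged genes called were 1, 4, 3, 5 and 7 in the same order.

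Named genes were the 10 genes in each comparison, from each list at most 4 of smallest p, the 5 genes most like Fabp4, Cd36 and Lpl, and the 5 of smallest p in each direction of a split. The values given for the nearest genes of Cebpb and Cebpd were chosen after seeing the data. The 10 genes and the lists were chosen with earlier results of these data known. Alternatives were a tumor block, DESeq2 1.42.0, its size factors, filterByExpr, no filter, ERCC library sizes, wells of at least 50000 reads, other classes and splits, and each tumor left out. Counting the nearest unnamed cluster as vascular-like, leaving out wells with Epcam, Pecam1 or Ptprc, and the largest cluster alone were added after seeing the data.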

Additional observations from a re-analysis of the deposited data

Results flagged for a closer look

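Reads of the 10 genes were also found in wells that enter no comparison, above the share of 3 wells that a count of 0 allows. In the 68 wells of the 2 unnamed clusters, nearest to the vascular-like and the developmental-like list, the share with a read was 36.8% for Fabp4, 41.2% for Fabp5, 5.88% for Cd36, 80.9% for Lpl, 69.1% for Plin2, 5.88% for Pparg, 33.8% for Cebpa, 69.1% for Cebpb, 64.7% for Cebpd and 26.5% for Apoe. In the 41 wells under 10000 reads it was 12.2% for Fabp4, 34.1% for Lpl and 9.76% for Plin2, from 8, 92 and 7 reads.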

How the results depend on the processing

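Counts of genes past the threshold moved by over 1.5 times in these settings. For matrix-like against vascular-like cells (840), DESeq2 gave 1531 and the highest marker score 395. For developmental-like cells (1508), DESeq2 gave 2599, ERCC library sizes 4620 and the highest marker score 210. For cycling-like cells (0), the tumor block gave 1, DESeq2 556, no filter 18, wells of at least 50000 reads 1 and the highest marker score 34, and the smaller set of variable genes gave no such class. For the Fabp4 split (0), DESeq2 gave 110 and no filter 20, and for the factor split (0) the tumor block gave 5 and DESeq2 52. Tumor as replicate block changed no call of the 10 genes. ERCC scaling moved the median log2 difference of all genes to 0.70, 1.00 and 1.48 in matrix-like, cycling-like and developmental-like cells, and the share of calls that were higher from 60.7% to 81.4% and from 36.6% to 88.6% in the first and last. Fabp4, Cd36 and Apoe kept their direction and calls there. Over 652 recomputed differences of the 10 genes, 17 lost a call, 6 gained one and no called difference reversed, while 24 of the 47 differences, none of them called, changed sign in some alternative. Calls were lost with the smaller set of variable genes, marker scores, DESeq2 size factors, filterByExpr and the 2 settings of wells added later. Thinning lowered 68 of 80 shares of wells and moved 20 beyond their interval. Leaving out a tumor left 1 library a side and no test. With 2 tumors, differences of rare genes such as Pparg rest on few wells.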

Other observations

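Among the clusters that make up the vascular-like class, a cluster of 60 wells with Cav1, Parm1, Mustn1 and Tagln among its leading genes had a Fabp4 read in 91.7% (81.6 to 97.2%) and a Cd36 read in 41.7% (29.1 to 55.1%) of wells. The other 3, of 47, 210 and 89 wells, had Fabp4 in 70.2%, 78.1% and 73.0% and Cd36 in 14.9%, 17.1% and 6.74%. Pparg was read in 26.7% of the cluster of 60 wells, against 6.38%, 11.4% and 13.5% of the other 3. Cebpa was read in 31.7% against 8.51%, 13.3% and 15.7%, and Lpl in 93.3% against 61.7%, 75.7% and 92.1%. Plin2 did not follow, at 56.7% against 48.9%, 73.3% and 82.0%. The cluster of 60 wells took 42 wells from tumor 1 and 18 from tumor 2, and its median depth was 192818 reads. Median depth in the other 3 was 58264, 184609 and 249986 reads. The unnamed cluster of 49 wells nearest to the vascular list, led by Serpinf1, Col8a1 and Inhba, had Fabp4 in 44.9% (30.7 to 59.8%) and Cd36 in 8.16%. No test between clusters was made.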
